A study of Mus musculus with 12 samples.

Results

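The genes described here are 9 subunits of the Polycomb repressive complexes, Ezh1, Ezh2, Eed, Suz12, Jarid2, Mtf2, Phf19, Cbx2 and Cbx7. Each was taken as the assembled locus whose transcripts matched the annotated gene of that name, and each name led to 1 such locus, so that 9 of the 80012 counted loci were followed and all 9 passed the filter on low values. The series holds 12 poly(A) RNA-seq libraries of mouse cells, 4 in each of 3 groups, with replicates numbered 1, 2, 5 and 6. ESC are undifferentiated embryonic stem cells of the C57BL/6 background at day 0, and Eo− and Eo+ are the GFP-negative and GFP-positive fractions sorted from embryoid bodies of the same line at day 3 of hanging drop differentiation. All 3 groups derive from a single reporter line that carries EGFP at the start site of the endogenous Eomes gene, and the ESCs were grown on mouse embryonic fibroblast feeders. Levels are CPM (locus counts scaled to a common library size with TMM factors) as mean ± SD of 4 libraries, or FPKM (CPM per kb of exon of the locus) where genes are compared with one another.

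Polycomb group proteins keep developmental genes silent. Polycomb repressive complex 2 (PRC2) methylates lysine H3K27 through EZH2 or its paralog EZH1, and needs EED, which binds the methylated tail, and SUZ12, the scaffold. JARID2 defines one form of PRC2, and the Polycomb-like proteins MTF2 and PHF19, which compete for the same surface of SUZ12, define another. Canonical PRC1 is brought to methylated H3K27 by a chromobox protein, for which CBX7 is the main one in ESCs while CBX2 is able to compact chromatin.

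Promoter windows are shown first because 6 of these genes moved together against ESC while both catalytic subunits did not, and because Ezh2 and Eed belong to the genes that E2F factors are known to control. RefSeq windows of GRCm38.p6 were held for 8 of the 9 genes (10 windows, none for Cbx2). Each window below runs from 250 bases before the annotated start to 30 bases after it, 5′ to 3′ on the strand of the gene, and capitals mark E2F-type words of 8 bases, searched as TTTCCCGC, TTTGGCGC, TTTCGCGC and TTTGCCGC on both strands.
Ezh2 (chr6:47595001-47595280, minus strand): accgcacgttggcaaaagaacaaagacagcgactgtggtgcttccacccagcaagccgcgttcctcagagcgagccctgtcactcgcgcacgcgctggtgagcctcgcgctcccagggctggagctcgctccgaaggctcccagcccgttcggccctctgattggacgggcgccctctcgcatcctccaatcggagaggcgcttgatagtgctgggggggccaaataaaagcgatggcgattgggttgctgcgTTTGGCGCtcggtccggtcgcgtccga
Suz12 (chr11:79992856-79993135, plus strand): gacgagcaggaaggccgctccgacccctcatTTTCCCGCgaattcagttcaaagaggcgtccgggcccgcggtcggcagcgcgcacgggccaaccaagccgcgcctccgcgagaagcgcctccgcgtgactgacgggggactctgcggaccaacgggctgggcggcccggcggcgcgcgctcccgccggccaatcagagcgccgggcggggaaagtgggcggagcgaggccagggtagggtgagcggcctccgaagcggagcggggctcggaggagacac
Phf19 (chr2:34913947-34914226, minus strand): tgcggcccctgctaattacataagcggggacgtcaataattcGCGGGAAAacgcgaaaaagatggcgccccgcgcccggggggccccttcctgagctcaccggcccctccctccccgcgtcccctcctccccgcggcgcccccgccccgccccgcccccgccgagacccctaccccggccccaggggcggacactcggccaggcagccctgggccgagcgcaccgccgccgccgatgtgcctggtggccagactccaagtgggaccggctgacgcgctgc
Eed (chr7:89980947-89981226, minus strand): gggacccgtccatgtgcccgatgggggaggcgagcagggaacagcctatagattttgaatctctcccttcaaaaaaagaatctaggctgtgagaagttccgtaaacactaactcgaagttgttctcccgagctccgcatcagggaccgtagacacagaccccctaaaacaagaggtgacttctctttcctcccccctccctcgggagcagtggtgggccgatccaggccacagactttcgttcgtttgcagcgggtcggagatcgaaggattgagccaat
Cbx7 (chr15:79932617-79932896, minus strand): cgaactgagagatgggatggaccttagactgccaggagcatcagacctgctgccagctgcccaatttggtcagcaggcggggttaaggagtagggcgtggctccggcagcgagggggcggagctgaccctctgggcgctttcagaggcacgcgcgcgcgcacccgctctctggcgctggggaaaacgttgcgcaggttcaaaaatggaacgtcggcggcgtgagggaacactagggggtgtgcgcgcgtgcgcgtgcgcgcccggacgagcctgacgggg

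A word of this set lay in 3 of the 10 windows of these genes, whereas 2.26% of all 32851 RefSeq windows held one (each searched over its whole length, slightly beyond what is shown). In Ezh2 the match began 4 bases after the start, and in Suz12 and Phf19 it began 219 and 208 bases before it. Eed and Cbx7, which fell in Eo+ cells, had none in this window, nor had the windows of Ezh1, Jarid2 and Mtf2. The words were chosen after these sequences had been read, so the count is a description and its distance from the share of all windows is no test. Each word holds a CpG pair, in which most windows of these genes are richer than the median window, so both shares are not like for like. CpG pairs numbered 38 in the Phf19 window, 31 in Ezh2, 41 in Suz12, 17 in Eed and 33 in Cbx7, and from 2 (a window of Mtf2) to 30 in the others, counted over the whole window, against a median of 7 over all windows. Genes with and without the word were found both among those that fell and among those that did not pass the test.

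Subunits of PRC2 fell by different amounts after day 0, and the chromobox genes moved in opposite directions. In Eo+ cells 6 of the 9 genes were lower than in ESCs, led by Phf19 (5.32-fold) and Cbx7 (4.83-fold), Cbx2 was 3.15-fold higher, and Ezh1 and Ezh2 did not pass the test. In Eo− cells the same 6 genes were lower and Cbx2 was again higher. Between both fractions of day 3, Phf19, Cbx7, Jarid2 and Eed were lower and Cbx2 was higher in Eo+ cells. The call of Eed there, and the lack of a call for Ezh2, depended on the fit and on single libraries.

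The share of members called was near that of all loci at this depth, while the directions were uneven. With limma and a Benjamini-Hochberg adjusted p of at most 0.05 over 17911 loci, 7 of 9 members and 71.9% of all loci passed in Eo+ vs ESC (35.8% higher, 36.1% lower), 7 of 9 and 62.2% for Eo− vs ESC (30.9% higher, 31.3% lower), and 5 of 9 and 47.7% between Eo+ and Eo− (23.0% higher, 24.7% lower). The members' median log2 fold change was −1.21 for Eo+ and −0.46 for Eo− against ESC and −0.19 between the fractions, beside medians of 0.0020, 0.015 and −0.015 over all loci. Comparisons against ESC share the ESC libraries and are not independent of each other.

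**Figure D1:**
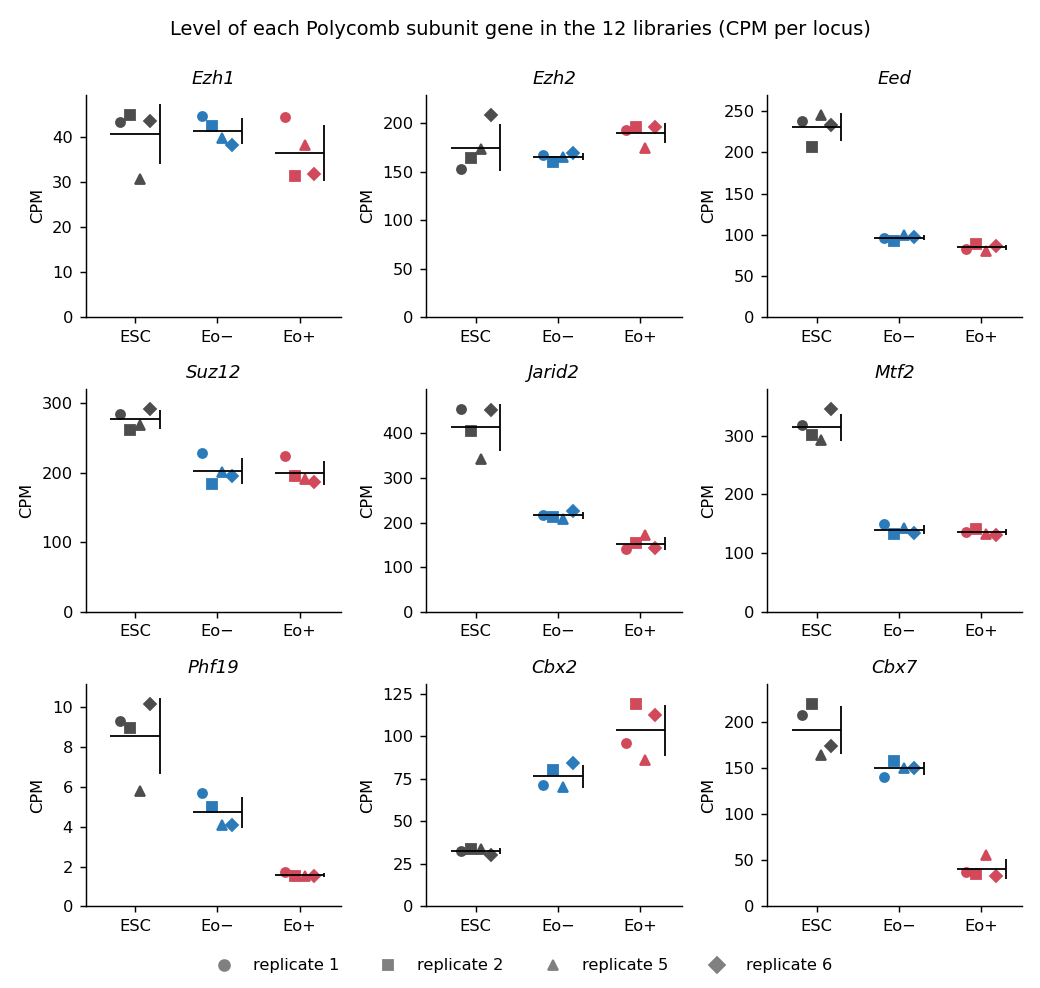
Level of each gene (CPM, y axis from 0) in the 4 libraries of ESC, Eo− and Eo+ (x axis), with the marker giving the replicate number, horizontal lines the means and vertical lines ± 1 SD. Eed, Jarid2, Mtf2 and Phf19 are highest in all ESC libraries, Cbx7 is low in the Eo+ libraries alone (32.4 to 55.7 CPM), Cbx2 climbs from ESC to Eo+, and Ezh1 and Ezh2 stay in 1 range.

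Locus totals ranged from 648413022 to 837308168 counts per library, so even the lowest member, Phf19, had at least 933 counts in each library. Pluripotency markers (6 genes) summed to 2851 to 3701 CPM in ESC libraries, 1321 to 1697 in Eo− and 471 to 831 in Eo+, and summed mesendoderm markers (6 genes) reached 1782 to 3083 CPM in Eo+ against 259 to 530 in Eo− and 95.7 to 299 in ESC. Feeder fibroblast markers (8 genes) summed to 95.4 to 239 CPM in ESC, 26.8 to 37.1 in Eo− and 18.97 to 31.5 in Eo+, with 7 of the 8 tested, all 7 lower in Eo+ than in ESC, and 5 lower and 1 higher in Eo−. The higher gene was Thy1, at 14.6 ± 4.72 CPM in ESC, 22.1 ± 4.93 in Eo− and 7.77 ± 0.61 in Eo+. Col1a1 among them measured 33.05 to 96.5 CPM in ESC libraries. Their part in the results against ESC was not tested. Visceral endoderm markers (6 genes) summed to at most 8.06 CPM in ESC, 10.2 in Eo− and 75.3 in Eo+. In bulk RNA, fewer cells that express a gene and less RNA of it per cell cannot be told apart.

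Both methyltransferase genes were examined first. Ezh2 (XLOC_059245; chromosome 6, 47530274 to 47595387, minus strand, mm10) measured 153, 164, 173 and 208 CPM in ESC libraries 1, 2, 5 and 6, then 167, 160, 165 and 169 CPM in Eo−, and 192, 196, 175 and 196 CPM in Eo+. The Eo+ libraries all lay above the Eo− libraries, and both lay inside the range of the ESCs. The log2 difference of Eo+ from ESC was 0.13 ± 0.08 (SE; 95% CI −0.05 to 0.30) (limma, adjusted p = 0.174), that of Eo− from ESC −0.07 ± 0.08 (adjusted p = 0.482) and 0.20 ± 0.08 between Eo+ and Eo− (adjusted p = 0.0623). With the replicate number as a block in the fit of all groups, Ezh2 was higher in Eo+ than in Eo− cells by 0.20 on the log2 scale (limma, adjusted p = 0.0416). In a fit of both sorted fractions alone the adjusted p was 0.0144 without the block and 0.013 with it, and with all classes of loci tested it was 0.0171 (log2 0.26). The Eo+ vs Eo− difference also passed without ESC replicate 1 (adjusted p = 0.0432), ESC replicate 6 (adjusted p = 0.0134) or Eo+ replicate 5 (adjusted p = 0.039), and the Eo+ vs ESC difference passed without ESC replicate 6 (log2 0.21, adjusted p = 0.00801) and with no filter on low values (log2 0.20, adjusted p = 0.0431).

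Ezh1 (XLOC_013467; chromosome 11, 101190796 to 101226463, minus strand), the paralog with weaker catalytic activity, measured 43.3, 44.9, 30.7 and 43.6 CPM in ESC, 44.6, 42.5, 39.8 and 38.2 CPM in Eo−, and 44.3, 31.4, 38.2 and 31.7 CPM in Eo+ libraries. The groups overlapped in every comparison. The log2 fold changes were −0.15 ± 0.13 for Eo+ and 0.04 ± 0.13 for Eo− against ESC, and −0.19 ± 0.13 (SE) between the fractions (limma, adjusted p = 0.325, 0.807 and 0.254), with 95% intervals that allowed a change of up to −0.48 in the last. ESC replicate 5 stood apart at 30.7 CPM, and without it Ezh1 was lower in Eo+ cells by 0.28 (adjusted p = 0.037).

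Core partners of the enzymes fell. Eed (XLOC_065421; chromosome 7, 89954646 to 89981273, minus strand) was measured at 239, 207, 246 and 233 CPM in ESC, at 95.6, 92.5, 99.6 and 97.0 CPM in Eo−, and at 82.5, 88.5, 80.7 and 86.3 CPM in Eo+. No Eo+ library reached the lowest Eo− library and no Eo− library came near an ESC library. Eed was thus 2.73-fold lower in Eo+ cells (log2 −1.45 ± 0.06, adjusted p = 7.04e-10) and 2.40-fold lower in Eo− cells (log2 −1.26 ± 0.06, adjusted p = 6.83e-09) than in ESCs. Between both fractions the log2 difference was −0.19 ± 0.07 (limma, adjusted p = 0.0322), and this small difference lost its call when Eo− replicate 1, 5 or 6 or Eo+ replicate 1, 5 or 6 was left out (adjusted p from 0.0588 to 0.09). It was also lost with no filter on low values (adjusted p = 0.0629) and with all classes of loci tested (log2 −0.12, adjusted p = 0.161).

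Suz12 shares its assembled locus (XLOC_010355; chromosome 11, 79993083 to 80135797, plus strand) with the neighbouring gene Atad5, and the counts cannot be divided between them. The locus measured 285, 261, 269 and 291 CPM in ESC, 228, 184, 201 and 195 CPM in Eo−, and 224, 195, 191 and 187 CPM in Eo+ libraries. Every ESC library was above every library of day 3, and both fractions overlapped. The joined locus fell by 0.47 ± 0.08 on the log2 scale in Eo+ cells (adjusted p = 7.31e-05) and by 0.46 ± 0.08 in Eo− cells (adjusted p = 0.000159). The difference between the fractions was −0.02 ± 0.08 (limma, adjusted p = 0.861; 95% CI −0.18 to 0.15).

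The accessory subunits fell more unevenly. Mtf2 (XLOC_053591; chromosome 5, 108065674 to 108331868, plus strand, reaching beyond the annotated end of the gene at 108109004) measured 319, 302, 293 and 345 CPM in ESC, 149, 133, 143 and 134 CPM in Eo−, and 136, 142, 133 and 131 CPM in Eo+. Both fractions lay at the same level, under all ESC libraries. Mtf2 was 2.32-fold lower in Eo+ (log2 −1.21 ± 0.06, adjusted p = 2.41e-09) and 2.25-fold lower in Eo− (log2 −1.17 ± 0.06, adjusted p = 1.17e-08), and the fractions differed by −0.04 ± 0.07 (limma, adjusted p = 0.604; 95% CI −0.19 to 0.10).

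Phf19 (XLOC_040616; chromosome 2, 34893659 to 34914179, minus strand), the second Polycomb-like gene here, was highest in ESC, lower in Eo− and lowest in Eo+. Its CPM values were 9.31, 8.98, 5.80 and 10.2 in ESC, 5.71, 4.98, 4.11 and 4.07 in Eo−, and 1.70, 1.52, 1.55 and 1.51 in Eo+. The groups did not overlap, although ESC replicate 5 (5.80) came close to Eo− replicate 1 (5.71). The fall was 5.32-fold in Eo+ vs ESC (log2 −2.41 ± 0.21, adjusted p = 1.81e-07), 1.78-fold in Eo− vs ESC (log2 −0.83 ± 0.18, adjusted p = 0.000973) and 2.98-fold in Eo+ vs Eo− (log2 −1.58 ± 0.22, adjusted p = 6.17e-05, all limma).

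Jarid2 (XLOC_017805; chromosome 13, 44729474 to 44921726, plus strand), which lacks the demethylase activity of its protein family, had the highest counts of the 9 genes in ESC. It measured 454, 406, 342 and 453 CPM in ESC, 218, 213, 207 and 226 CPM in Eo−, and 140, 155, 172 and 144 CPM in Eo+. The groups formed separate steps, with the lowest ESC library and the highest Eo+ library both being replicate 5. Jarid2 was 2.70-fold lower in Eo+ (log2 −1.43 ± 0.09, adjusted p = 1.43e-08) and 1.90-fold lower in Eo− (log2 −0.93 ± 0.09, adjusted p = 1.48e-06) than in ESCs, and lower in Eo+ than in Eo− by −0.50 ± 0.09 (limma, adjusted p = 0.000645).

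The chromobox genes of canonical PRC1 were measured next. Cbx7 (XLOC_026455; chromosome 15, 79915801 to 80008305, minus strand, reaching beyond the annotated 5′ end at 79971119, while the RefSeq window shown above lies inside the locus) had 208, 219, 164 and 174 CPM in ESC and 140, 158, 149 and 150 CPM in Eo−, but 37.5, 35.1, 55.7 and 32.4 CPM in Eo+. The Eo− libraries lay just under the ESC libraries and far above the Eo+ libraries. The fall was 4.83-fold in Eo+ vs ESC (log2 −2.27 ± 0.14, adjusted p = 9.75e-09) and 3.80-fold in Eo+ vs Eo− (log2 −1.93 ± 0.14, adjusted p = 4.42e-07). In Eo− vs ESC the log2 difference was −0.35 ± 0.13 (limma, adjusted p = 0.0274), and it missed the threshold without ESC replicate 1 (adjusted p = 0.0757), without ESC replicate 2 (adjusted p = 0.0862), without Eo− replicate 1 (adjusted p = 0.063), with library totals in place of TMM (adjusted p = 0.0617) and with edgeR's quasi-likelihood test (adjusted p = 0.0509).

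Cbx2 (XLOC_011265; chromosome 11, 119022962 to 119032776, plus strand) was the only member higher than in ESC by the test. It measured 32.5, 33.4, 33.8 and 30.4 CPM in ESC, 71.1, 80.2, 69.9 and 84.1 CPM in Eo−, and 96.1, 119, 86.1 and 112 CPM in Eo+. The groups did not overlap, and the lowest Eo+ library (replicate 5, 86.1) was close to the highest Eo− library (84.1). Cbx2 was 3.15-fold higher in Eo+ (log2 1.65 ± 0.11, adjusted p = 1.43e-08) and 2.34-fold higher in Eo− (log2 1.22 ± 0.11, adjusted p = 6.11e-07) than in ESCs, and 1.35-fold higher in Eo+ than in Eo− (log2 0.43 ± 0.10, adjusted p = 0.0026, all limma).

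**Figure D2:**
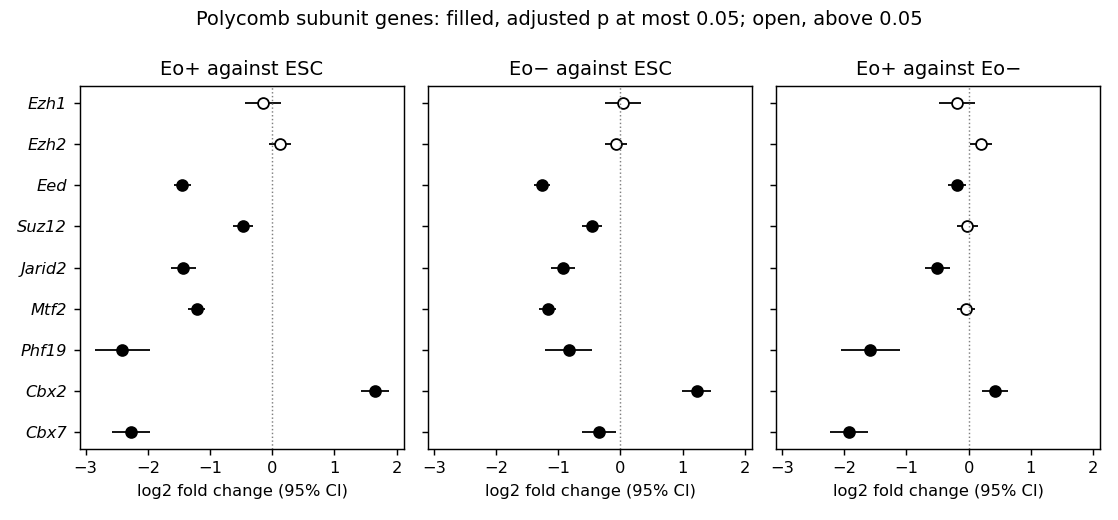
Log2 fold change of each gene (x axis; points, with 95% confidence intervals from limma as lines) in Eo+ vs ESC, Eo− vs ESC and Eo+ vs Eo−, where filled points have an adjusted p of at most 0.05 and open points do not. Cbx7 lies at −2.27 in Eo+ vs ESC but at −0.35 in Eo− vs ESC, Mtf2 and the Suz12 locus lie at like values against ESC in both, and Cbx2 alone is filled to the right of 0.

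Replicate 5 lay at the edge of its group in several of these genes. ESC replicate 5 was the lowest ESC library for Jarid2, Mtf2, Phf19, Cbx7 and Ezh1 and had the highest mesendoderm marker sum of its group (299 CPM, the others 95.7 to 173) and the lowest pluripotency sum (2851 CPM, the others 3152 to 3701). Eo+ replicate 5 was the highest Eo+ library for Cbx7 and Jarid2 and the lowest for Cbx2 and Ezh2, with a pluripotency sum of 831 CPM (the others 471 to 808), while its mesendoderm sum (1870 CPM) was above that of replicate 1 (1782 CPM). For Eed, replicate 5 was the highest ESC library and the lowest Eo+ library, away from the other groups. Without Eo+ replicate 5 or ESC replicate 5, the calls of Jarid2, Phf19, Cbx2 and Cbx7 against ESC and of these genes in Eo+ vs Eo− did not change.

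Ratios between alternative subunits were formed within each library from FPKM and compared by a two-sided exact permutation test of 4 against 4 libraries, for which the smallest possible p is 0.0286, adjusted over 12 tests. This test treats the libraries as unpaired, although same-numbered libraries are read as a shared differentiation set. The ratio of Cbx7 to Cbx2 turned over. Cbx7 made up 85.0%, 85.3%, 81.1% and 83.5% of the summed FPKM of both genes in ESC libraries 1, 2, 5 and 6, 63.6%, 63.6%, 65.4% and 61.3% in Eo−, and 25.7%, 20.7%, 36.4% and 20.4% in Eo+. Cbx7 exceeded Cbx2 in every ESC and Eo− library and was below it in every Eo+ library. On the log2 scale the ratio was 2.37 ± 0.20 in ESC, 0.80 ± 0.11 in Eo− and −1.56 ± 0.54 in Eo+ (SD, n = 4 each). It fell by 3.93 ± 0.29 (SE) from ESC to Eo+, by 1.57 ± 0.11 from ESC to Eo− and was lower in Eo+ than in Eo− by a difference of −2.36 ± 0.28 (exact permutation p = 0.0286 and adjusted p = 0.0490 for each). With the annotated exon length of the genes the linear ratio would be 3.83, 1.29 and 0.251 in place of 5.17, 1.74 and 0.339, which leaves the order of both genes unchanged in each group.

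The ratio of Phf19 to Mtf2 was low throughout. Mtf2 exceeded Phf19 27.0-fold in ESC, 21.6-fold in Eo− and 62.3-fold in Eo+ on the FPKM scale. The log2 ratio was −4.76 ± 0.29, −4.43 ± 0.21 and −5.96 ± 0.09 (SD) and fell by 1.20 ± 0.15 from ESC to Eo+, with a difference of −1.53 ± 0.12 between Eo+ and Eo− (exact permutation, adjusted p = 0.0490 for each), whereas Eo− and ESC overlapped (difference 0.33 ± 0.18, adjusted p = 0.171). Within same-numbered pairs the ratio of Phf19 to Mtf2 was higher in Eo− than in ESC each time. Jarid2 and Mtf2 mark different forms of PRC2. Mtf2 exceeded Jarid2 by 1.03-fold in ESC and 1.20-fold in Eo+ and was below it in Eo− on the assembled lengths. With annotated exon lengths it exceeded Jarid2 by 1.30, 1.103 and 1.52-fold in ESC, Eo− and Eo+. Their log2 ratio was −0.04 ± 0.12 in ESC, 0.20 ± 0.11 in Eo− and −0.26 ± 0.15 in Eo+, higher in Eo− than in ESC by 0.24 ± 0.08 and lower in Eo+ than in Eo− by a difference of −0.46 ± 0.09 (exact permutation, adjusted p = 0.0490 for both), with overlapping libraries in Eo+ vs ESC (difference −0.22 ± 0.09, adjusted p = 0.0762).

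Ezh2 exceeded Ezh1 by 8.05-fold in ESC, 7.47-fold in Eo− and 9.80-fold in Eo+ on the FPKM scale, or by 4.82, 4.47 and 5.86-fold with annotated exon lengths. Ezh1 gave 8.67% to 13.2% of the summed FPKM of both enzymes in ESC, 10.8% to 12.6% in Eo− and 7.93% to 11.0% in Eo+ libraries. The libraries overlapped in all 3 comparisons, and the largest log2 difference was −0.39 ± 0.15 in Eo+ vs Eo− (exact permutation p = 0.0571, adjusted p = 0.0762). Within the 4 same-numbered pairs of sorted fractions the ratio was lower in Eo+ each time, for which an exact sign-flip test over pairs gives p = 0.125, the smallest it can give. With 4 pairs the same limit holds for every ratio described here, so none of them could pass such a paired test.

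**Figure D3:**
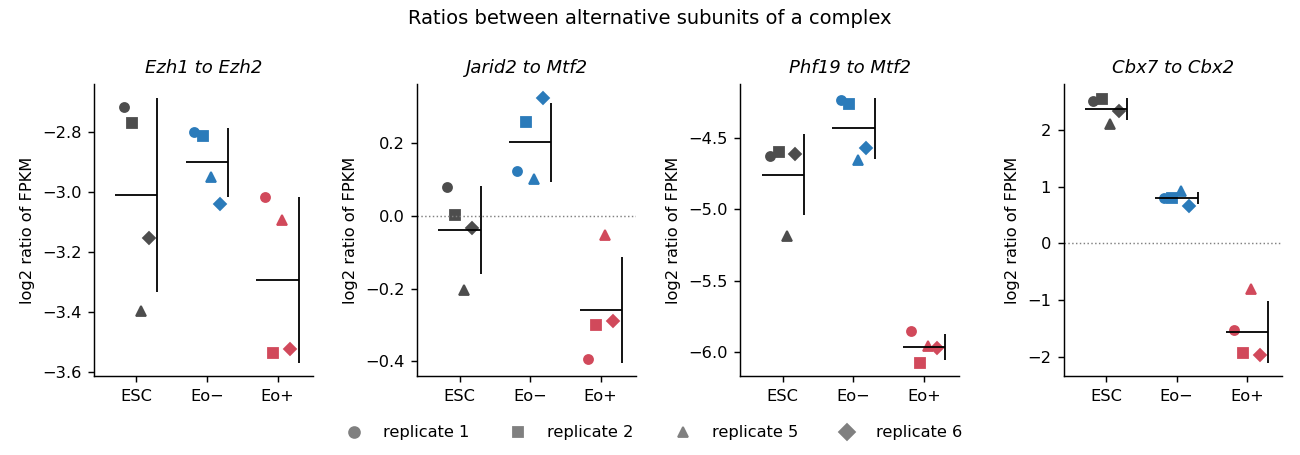
Log2 ratio of FPKM within each library (y axis; a separate scale in each panel) for 4 pairs of alternative subunits in ESC, Eo− and Eo+ (x axis), with the marker giving the replicate number, horizontal lines the means and vertical lines ± 1 SD. The Cbx7 to Cbx2 ratio moves from 2.37 in ESC across 0 to −1.56 in Eo+, and the Ezh1 to Ezh2 libraries overlap.

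Per kb of exon the order of the members changed between groups. In ESC it ran from Eed (91.4 FPKM) over Mtf2 (42.9), Jarid2 (41.9), Cbx7 (29.4), Ezh2 (26.9), the Suz12 locus (10.2), Cbx2 (5.64) and Ezh1 (3.36) to Phf19 (1.62). The libraries of Mtf2 and Jarid2 overlapped, as did those of Cbx7 and Ezh2. In Eo+ cells Eed (33.5) and Ezh2 (29.2) led, followed by Mtf2 (18.5), Cbx2 (17.9) and Jarid2 (15.5), of which Cbx2 overlapped with both its neighbours, then the Suz12 locus (7.36) and Cbx7 (6.17), which overlapped, and Ezh1 (3.01) and Phf19 (0.297). In Eo− cells the order was Eed (38.1), Ezh2 (25.5), Cbx7 (23.0), Jarid2 (21.9), Mtf2 (19.1), Cbx2 (13.2), the Suz12 locus (7.46), Ezh1 (3.41) and Phf19 (0.891), with overlap between Cbx7 and Jarid2 alone. The assembled exon length of the joined Suz12 locus is 27079 bases and the annotated length of the gene 4945. With annotated lengths the Suz12 locus ranked 2 in ESC and 1 in both fractions, which is an upper bound since its counts still hold those of Atad5, and Eed ranked 1 in ESC, 2 in Eo− and 5 in Eo+, so places near the top depend on the length used.

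A locus on the other strand moved with Cbx2. XLOC_013870 (chromosome 11, 119011305 to 119023800, minus strand), a non-annotated lncRNA named after its values were seen, overlaps the first 839 bp of the Cbx2 locus head to head. It measured 1.11, 1.04, 1.58 and 0.878 CPM in ESC, 2.35, 3.30, 3.33 and 3.32 CPM in Eo−, and 3.42, 5.57, 3.63 and 5.23 CPM in Eo+. All libraries of day 3 were above all ESC libraries, and the lowest Eo+ library (3.42) was just above the highest Eo− library (3.33). It was 3.85-fold higher in Eo+ (log2 1.94 ± 0.23, adjusted p = 4.03e-06) and 2.69-fold higher in Eo− (log2 1.43 ± 0.24, adjusted p = 0.000146) than in ESCs, and differed by 0.52 ± 0.20 between the fractions (limma, adjusted p = 0.0486). Reads were counted by strand, so that its counts are kept apart from those of Cbx2.

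Cbx8, which encodes a further chromobox protein, lies next to Cbx2 on the same chromosome at a distance of 3.53 kb. Cbx8 measured 1.20 to 2.19 CPM in ESC, 1.09 to 1.41 in Eo− and 1.63 to 2.71 in Eo+, with a log2 difference of 0.26 ± 0.21 between Eo+ and ESC (limma, adjusted p = 0.282) and of 0.81 ± 0.22 between Eo+ and Eo− (adjusted p = 0.00799). In Eo− cells Cbx8 was lower than in ESC by a difference of −0.55 ± 0.22 (adjusted p = 0.0454), where Cbx2 was higher.

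**Figure D4:**
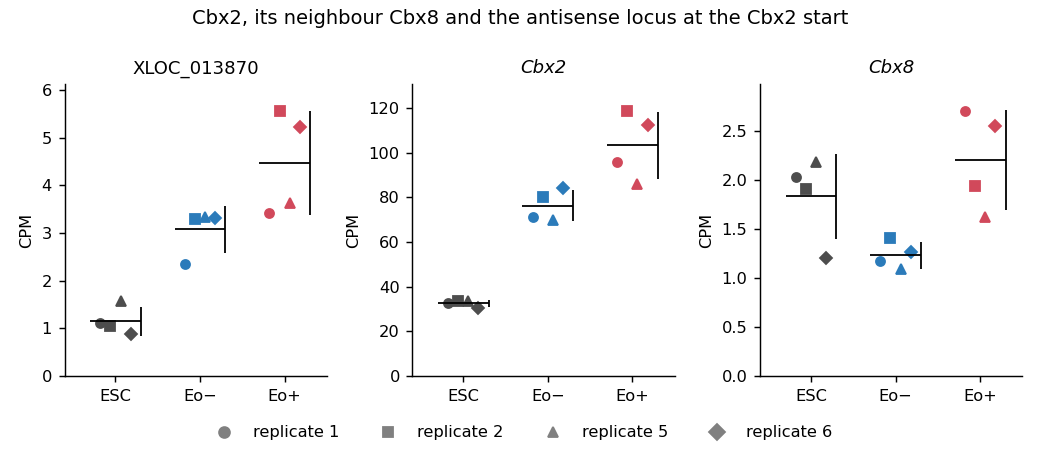
Level in CPM (y axis from 0, a separate scale in each panel) of the antisense locus XLOC_013870 and of Cbx2 and Cbx8, which neighbour each other on chromosome 11, in the 4 libraries of each group (x axis), with means as horizontal and ± 1 SD as vertical lines. XLOC_013870 and Cbx2 rise from ESC to Eo+, and Cbx8 stays at 1.09 to 2.71 CPM.

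Other genes of both complexes and their opponents were followed in 5 lists of 47 genes, all tested. Against ESC 18 were higher and 21 lower in Eo+ and 14 and 19 in Eo−, and 11 and 11 differed between the fractions, that is 83.0%, 70.2% and 46.8% of the 47 beside the 71.9%, 62.2% and 47.7% of all loci. Their median log2 fold change was −0.0020, −0.16 and 0.023 in these comparisons.

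Accessory subunits of PRC2 (7 genes) fell in 5 cases and rose in 1 in Eo+ vs ESC (85.7% called, beside 71.9% of all loci). Epop, which links PRC2 to elongin and limits its activity, dropped from 868 ± 144 CPM in ESC to 159 ± 32.5 in Eo− and 103 ± 19.2 in Eo+ (Eo+ vs ESC log2 −3.08 ± 0.15, adjusted p = 1.65e-09). Ezhip, an inhibitor of the methyltransferase, went from 2.76 ± 0.75 CPM to 1.16 ± 0.24 and 0.24 ± 0.050 (log2 −3.47 ± 0.30, adjusted p = 1.75e-07). Lcor, in a locus joined with other gene models, fell by 1.28 ± 0.09 (adjusted p = 4.41e-08). Its difference between Eo+ and Eo− was −0.20 ± 0.10 (adjusted p = 0.127) and passed with the replicate block (log2 −0.19, adjusted p = 0.0489). The histone chaperones differed little, with Rbbp4 at 706 ± 36.3, 683 ± 28.9 and 704 ± 42.1 CPM in ESC, Eo− and Eo+ (log2 −0.0023 ± 0.06 in Eo+ vs ESC, adjusted p = 0.975) and Rbbp7 higher in Eo+ than in ESC by 0.25 ± 0.08 (adjusted p = 0.01), a call lost with a filter of 1 CPM (log2 0.18, adjusted p = 0.0662).

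Canonical PRC1 (12 genes) rose in 5 and fell in 4 cases in Eo+ vs ESC (75% called, near the 71.9% of all loci). Among the Polyhomeotic genes, Phc1 dropped from 610 ± 113 CPM in ESC and 499 ± 29.97 in Eo− to 199 ± 42.7 in Eo+ (Eo+ vs ESC log2 −1.62 ± 0.14, adjusted p = 2.22e-07), Phc2 climbed from 43.6 ± 3.55 over 87.8 ± 13.6 to 162 ± 26.3 CPM (log2 1.88 ± 0.13, adjusted p = 3.06e-08). Phc3 gave 0.10 ± 0.13 (adjusted p = 0.486). Of the ubiquitin ligases of histone H2A, Ring1 rose from 10.9 ± 0.93 over 17.5 ± 2.14 to 23.7 ± 3.15 CPM (log2 1.12 ± 0.12, adjusted p = 2.22e-06), and Rnf2 from 102 ± 3.77 in ESC to 127 ± 6.72 in Eo+ (log2 0.32 ± 0.07, adjusted p = 0.000844). Bmi1, which partners the ligase, rose from 5.05 ± 1.03 in ESC to 16.4 ± 3.40 CPM in Eo+ (log2 1.69 ± 0.21, adjusted p = 5.25e-06).

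Variant PRC1 (13 genes), which acts without a chromobox protein, rose in 7 and fell in 3 cases in Eo+ vs ESC (76.9% called, near the 71.9% of all loci). Bcorl1 climbed from 6.77 ± 1.05 CPM in ESC to 28.6 ± 1.52 in Eo− and 27.0 ± 2.60 in Eo+ (log2 2.01 ± 0.12 in Eo+ vs ESC, adjusted p = 6.59e-09). Yaf2 climbed from 17.9 ± 2.63 over 34.0 ± 2.31 to 53.5 ± 1.49 (log2 1.59 ± 0.09, adjusted p = 5.64e-09). Auts2 (log2 1.30 ± 0.12) and E2f6 (log2 1.00 ± 0.11) also rose (adjusted p = 4.5e-07 and 2.56e-06). L3mbtl2 fell by 1.17 ± 0.08 (adjusted p = 1.43e-08, all limma).

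Enzymes that remove Polycomb marks and their cofactors (6 genes) rose in 2 and fell in 3 cases in Eo+ vs ESC, where 71.9% of all loci were called, and likewise in Eo− vs ESC, where 62.2% were. H3K27 demethylases are encoded by Kdm6a and Kdm6b. Kdm6b, joined with Cyb5d1 and Tmem88 in 1 locus, went from 97.9 ± 15.8 CPM in ESC to 217 ± 30.5 in Eo+ (log2 1.15 ± 0.11, adjusted p = 8.28e-07). Kdm6a changed by −0.32 ± 0.11 (adjusted p = 0.0199), a call lost without ESC replicate 1 (adjusted p = 0.0699), Eo+ replicate 2 (adjusted p = 0.0517) or Eo+ replicate 6 (adjusted p = 0.0651). It was also lost with library totals (adjusted p = 0.0579) and with no filter (adjusted p = 0.0633). Asxl3, a partner of the H2A deubiquitinase, rose from 1.77 ± 0.34 to 9.07 ± 0.25 CPM in Eo+ (log2 2.37 ± 0.15, adjusted p = 1.49e-08). The calls in Eo− vs ESC were less firm. Those of Kdm6b (higher, limma, adjusted p = 0.0268), Asxl3 (higher, adjusted p = 0.0382) and Kdm6a (lower, adjusted p = 0.016) were lost in 8, 10 and 3 of 21 alternatives. All 9 Trithorax genes, whose products write the opposing mark on H3K4, passed the test in Eo+ vs ESC (3 higher, 6 lower; 71.9% of all loci did), led by Ash2l (log2 −1.08 ± 0.06, adjusted p = 6.04e-09). In Eo− vs ESC 7 of the 9 passed (77.8%, beside 62.2% of all loci), and between the fractions 3 of the 9 did (33.3%, beside 47.7% of all loci).

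**Figure D5:**
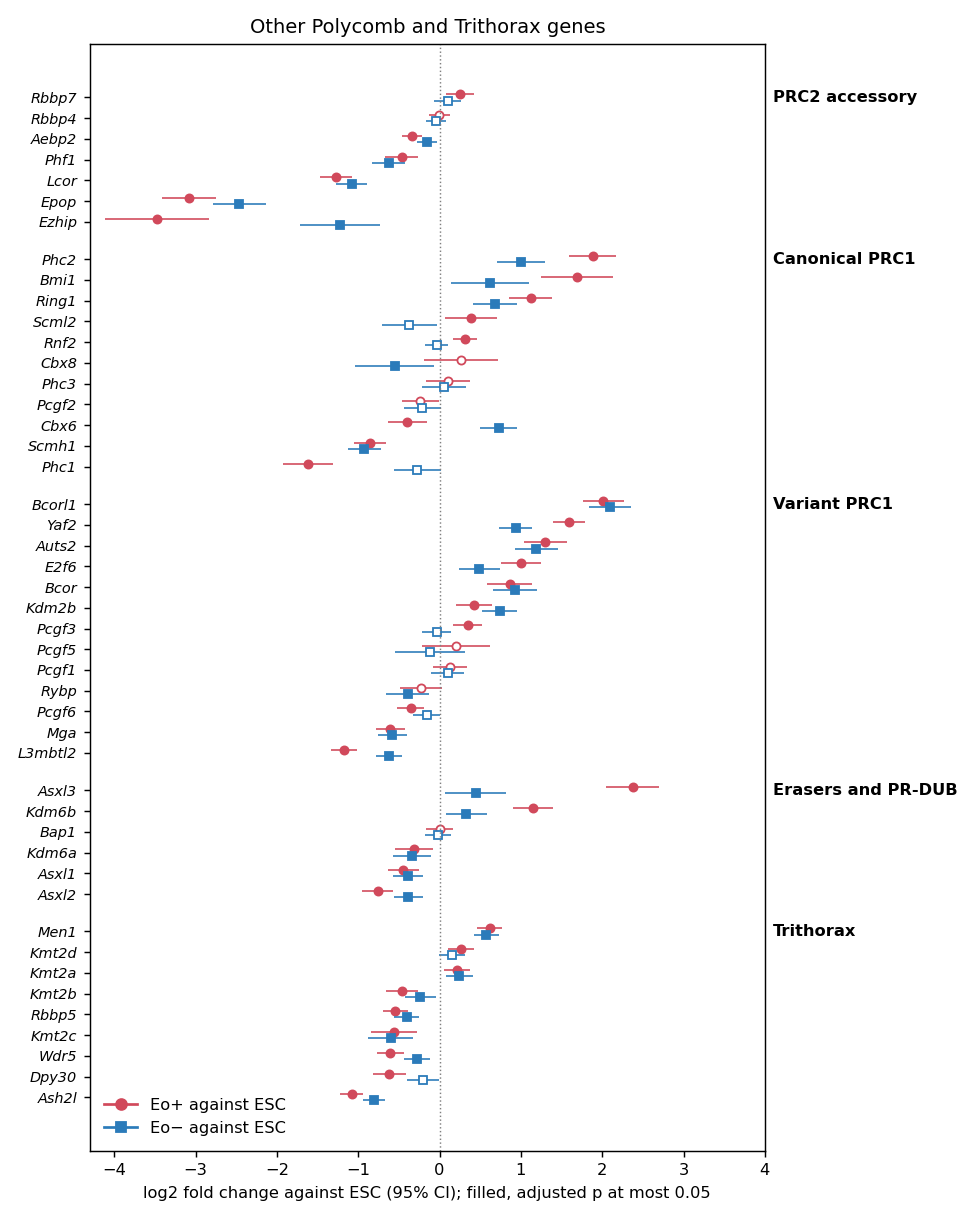
Log2 fold change against ESC (x axis, with 95% confidence intervals from limma) of further Polycomb and Trithorax genes of the 5 lists in Eo+ (circles) and Eo− cells (squares), filled where the adjusted p is at most 0.05. Epop and Ezhip lie farthest to the left at −3.08 and −3.47 in Eo+, and Asxl3, Bcorl1, Phc2 and Bmi1 lie farthest to the right.

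Of 22 genes known as Polycomb targets in ESCs, 18 were tested, of which 11 were higher and 6 lower than in ESC in Eo+, 3 and 6 in Eo−, and 11 and 2 between the fractions. In all 94.4%, 50% and 72.2% of the tested targets passed, beside 71.9%, 62.2% and 47.7% of all loci. The Eo− count depends on the fit, since Gata4 and Hand2 did not pass there (adjusted p = 0.0637 and 0.2) but were higher than in ESC with the replicate block (log2 1.16 and 2.71, adjusted p = 0.00054 and 0.000468), with edgeR (adjusted p = 0.00685 and 0.0109) and with DESeq2 (adjusted p = 0.00449 and 0.00241). The median log2 fold change of the list was 1.95, 0.31 and 1.77. The largest rises were those of Hand2 (0.0936 ± 0.048 CPM in ESC, 16.2 ± 13.9 in Eo+), Sox17 (0.64 ± 0.15 and 47.5 ± 12.8) and Gata4 (2.60 ± 0.64 and 156 ± 42.0), all transcription factors of mesoderm or endoderm, with log2 fold changes of 7.21 ± 1.27, 6.21 ± 0.44 and 5.88 ± 0.40 (limma, adjusted p = 0.00016, 3.66e-08 and 2.46e-08). The largest falls were those of the neural factor Pax6 (7.51 ± 1.39 to 0.0793 ± 0.011 CPM, log2 −6.55 ± 0.31, adjusted p = 1.03e-09), the locus joining Hoxa2 and Hoxa3 (1.14 ± 0.43 to 0.13 ± 0.086, log2 −3.31 ± 0.51, adjusted p = 5.23e-05) and the cell cycle inhibitor Cdkn2a (8.15 ± 1.67 to 1.40 ± 0.85, log2 −2.77 ± 0.35, adjusted p = 6.99e-06). Hand2 and Sox17 passed the filter on low values only through day 3 groups (mean FPKM 0.035 and 0.087 in ESC). Pax6 and the Hoxa2 locus passed it only through ESC (mean FPKM 0.0064 and 0.014 in Eo+). For such genes the direction in Eo+ vs ESC was in part fixed by the filter, and the counts, shares and medians of the list include them. The part of the feeder markers, whose sum was highest in ESC, in the falls against ESC was not tested.

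Proliferation genes (14) were set beside the E2F-type words. Against ESC 1 was higher and 9 were lower in Eo+ and 1 and 3 in Eo−, and 3 and 7 differed between the fractions. That is 71.4%, 28.6% and 71.4% of the list beside 71.9%, 62.2% and 47.7% of all loci, with median log2 fold changes of −0.20, −0.042 and −0.21. Their summed level was 5481 to 6101 CPM in ESC, 5017 to 5429 in Eo− and 4394 to 5208 in Eo+.

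Genes with the most similar course were sought by Pearson's r of log2 CPM over the 12 libraries among 12973 protein coding loci. These libraries form 3 groups, so that r mostly reflects the 3 group levels. Nearest to Cbx2 were Vrtn (r = 0.996) and Ctdsp1 (r = 0.996). Nearest to Cbx7 were 9430069I07Rik (r = 0.997) and Slco4a1 (r = 0.995), and nearest to Phf19 were Tex14 (r = 0.991) and Phkg1 (r = 0.986). Eed was closest to Pdhb (r = 0.997) and Schip1 (r = 0.995), Mtf2 to Ttc37 (r = 0.994), Jarid2 to Enpp4 (r = 0.9925) and Rad9b (r = 0.9915), and the Suz12 locus to Ing3 and Anln (r = 0.978 for each). The values for Ezh2 (1810009A15Rik in a joined locus, r = 0.958, and Mmadhc, r = 0.945) and Ezh1 (Cln6, r = 0.877, and Slc41a3, r = 0.876) were lower. Among the members themselves, Eed and Mtf2 ran closest together (r = 0.986), and Jarid2 and Cbx2 ran most opposite (r = −0.969).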

How the data were processed

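Poly(A) RNA of 12 libraries was sequenced by the authors, mapped with STAR to mm10, assembled with Cufflinks 2.2.1 on the Ensembl annotation and counted per locus and strand with HTSeq 0.6.1 (tools per the labels and the study's methods). The labels give STAR as version 2.0.4. The deposited counts are whole numbers without scaling for 80012 loci. Tally lines for reads outside any locus, ambiguous or not unique held 25.1% to 29.0% of the table and were left out. A second deposited table of scaled values was not used, since it holds the same counts divided by 1 constant per library. The deposited transcript annotation gave exon positions in mm10, and GENCODE mouse release 21 gave biotypes and annotated exon lengths. No column belonged to another sample (0 columns).

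Loci of protein coding genes, annotated lncRNAs and non-annotated lncRNAs with a mean FPKM above 0.1 in at least 1 group were tested (17911 loci), the filter that the study states. Counts were analysed with limma 3.58.1 (voom, TMM factors from edgeR 4.0.16, R 4.3.3) with 1 mean per group over all 12 libraries, two-sided, and p-values were adjusted by Benjamini-Hochberg over all loci tested. DESeq2 1.42.0 and edgeR served as alternatives. FPKM was computed from CPM and the summed exon length of the locus. Subunit ratios were tested by exact permutation with scipy 1.17.1. The pipeline was tested on simulated data. Per the study's methods the 12 libraries come from 4 differentiation sets, as 4 ESC, 4 Eo− and 4 Eo+ samples. That each set gave a sample of every group was read from the replicate numbers. No library pair of a group agreed within counting noise (chi-square per degree of freedom at least 61.4).

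The members, lists, ratios and tests were chosen with earlier results of these data known. Beside the 9 members, genes named from the lists are those called in Eo+ vs ESC with a log2 change of at least 1, no overlap of libraries and a mean of 1 CPM or more in the group with more (for Polycomb targets the 3 largest rises and falls), and Rbbp4, Rbbp7, Ring1, Rnf2, Kdm6a and Kdm6b whatever their values. Phc3, Cbx8 and XLOC_013870 were named after their values were seen. Some genes that these rules would name are not reported here, while the counts of the lists include all their genes. Same-numbered Eo− and Eo+ libraries deviated together from their group means (correlations of 0.325 to 0.654), while correlations of same-numbered libraries with ESC ranged from −0.166 to 0.453. The number was read as the differentiation set, which ties all 3 groups, and a fit with the replicate number as a block over all 12 libraries is given beside the members and named genes whose call it changed. A floor of 3 counts corresponds to 0.00368 to 0.00485 CPM, for counting error alone.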

Additional observations from a re-analysis of the deposited data

Results flagged for a closer look

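In 39 groups of 4 libraries (27 levels and 12 ratios), 3 had a library that stood far from the others, where chance gives about 1 in 20, so 3 of 39 is near that share. The levels and ratios come from the same genes and libraries and are not independent. Ezh1 in ESC had its lowest library, replicate 5, at 30.7 CPM with the others at 43.3 to 44.9 CPM. In Eo+ cells the lowest Ezh2 library, again replicate 5, measured 174.7 CPM with the others at 192 to 196 CPM. The log2 ratio of Phf19 to Mtf2 in ESC was −5.18 in replicate 5 and −4.63 to −4.60 in the other libraries. Whether more than chance sets replicate 5 apart was not tested.

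Transcripts that bear a member's name without matching it formed 6 further loci outside the members. XLOC_013870, antisense to the start of Cbx2, reached a mean of 4.46 CPM in Eo+ and 3.08 CPM in Eo− and was above its ESC level (1.15 CPM) in all libraries of day 3. The other loci stayed at or below a group mean of 0.62 CPM, and none had all libraries of day 3 above all ESC libraries.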

How the results depend on the processing

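Alternatives gave 134 values for the counts of called genes in the members and the 5 lists, of which 129 stayed within 1.5 times the main count. The others came with an additional 2-fold threshold, which left 3 members for Eo− vs ESC and 2 between the fractions, and of the other Polycomb and Trithorax genes 16 for Eo+ and 7 for Eo− against ESC and 5 between the fractions, with 6827, 5064 and 3787 of all loci. All 144 alternative values of the ratios stayed within 1 SD. Leaving out 1 of 4 libraries cannot move the mean of a group by 1 SD, so for such alternatives this was fixed in advance. Ratio levels with annotated exon lengths, which are not in this count, moved further, as for Cbx7 to Cbx2 in ESC (log2 1.94 in place of 2.37 ± 0.20). Among the members the replicate block changed the call of Ezh2 between Eo+ and Eo− (log2 0.1980) and no other. Of the fold changes 2073 kept direction and side of the threshold, 46 no longer passed, 26 came to pass and 28 changed sign, all of the last uncalled and near 0. Those of Ezh1 for Eo− vs ESC were −0.0113 with DESeq2 size factors, −0.0010 with a 1 CPM filter, −0.0289 with all classes of loci and −0.0296 with DESeq2, and −0.0918 to 0.0944 without single libraries. With all classes the Suz12 locus (0.0452) and Mtf2 (0.0193) changed sign between Eo+ and Eo−. With library totals and with no filter Rbbp4 gave 0.0356 and 0.0656 for Eo+ and 0.0206 and 0.0127 for Eo− against ESC, and Rnf2 0.0288 and 0.0216 for Eo−, while Kdm6a gave −0.0054 with library totals and −0.0117 with the 1 CPM filter between the fractions. Without single libraries Ezh2 ranged from −0.1306 to 0.0177 and Rnf2 from −0.0874 to 0.0125 for Eo− vs ESC, Rbbp4 from −0.0233 to 0.0454 for Eo+ vs ESC, and, between the fractions, the Suz12 locus from −0.0706 to 0.050 and Kdm6a from −0.0654 to 0.1124. The cause was not tested.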
